A study of Mus musculus with 12 samples.

Results

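CA3 was compared with the dentate gyrus (DG) in formalin-fixed frozen sections of the mouse hippocampus, on 8 of the 48 replicates in the count table, 4 from CA3 and 4 from DG, taken by the condition and region in their names. All were from male ICR mice (Slc:ICR in the study's methods), an outbred stock, aged 8 weeks, and the labels give no genetic change. The tissue had been fixed with 4% PFA and cut frozen, and the sections were permeabilized in TE at 70 °C for 1 h. In photo-isolation chemistry (PIC), cDNA is primed in the section with caged primers, light uncages the primers only in the region it is projected on, and CEL-seq2, which amplifies RNA and tags each cDNA with a unique molecular identifier (UMI), then counts transcripts from their 3′ ends. The series holds CA1, CA3 and DG in 4 histological conditions, namely fresh-frozen sections permeabilized with 0.1 N HCl or with TE, formalin-fixed frozen sections and formalin-fixed paraffin sections. Each region was 1 library of 4 replicates with different barcodes, so that within this condition a difference between regions and a difference between libraries cannot be told apart. The study calls its replicates biological, but which mouse gave which replicate is not given in the sources used here, and p-values measure only the spread between these replicates. The description of the series writes CA2 where the sample names have CA3, and the names were followed.

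The dentate gyrus holds densely packed granule cells, which receive the entorhinal input and send mossy fibers to the pyramidal cells of CA3, and it keeps a zone of adult neurogenesis beside the hilus. Prox1 is the transcription factor that sets and maintains granule cell identity. Dkk3 encodes a secreted protein of the Dickkopf family and marks pyramidal cells. CA3 pyramidal cells carry kainate receptors at the mossy fiber synapse and connect to each other by recurrent collaterals.

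The CA3 replicates held 98187, 141682, 127743 and 52800 UMIs and the DG replicates 134149, 307145, 242431 and 109002. The mean was 1.89 times as large in DG, and the ranges overlapped (two-sided exact permutation test of 4 against 4, p = 0.143, where the smallest possible p is 0.0286). That test did not pair replicates by number. In both regions replicate 2 held the most UMIs, followed by replicates 3, 1 and 4. Each DG replicate held more UMIs than the CA3 replicate of the same number. Genes with at least 1 UMI numbered 7739 to 10941 in CA3 and 9894 to 13053 in DG (exact permutation test, p = 0.171). When all replicates were thinned at random to 52800 UMIs, the smallest total, means of 8014 ± 231 genes in CA3 and 8245 ± 256 in DG were left (SD, n = 4). The mitochondrially encoded genes took 5.82 to 8.81% of the UMIs in CA3 and 5.78 to 9.94% in DG.

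The marker genes followed the labels of both regions. In CPM, the UMIs of a gene per 1000000 of its replicate, Dkk3 stood at 519, 438, 571 and 549 in the 4 CA3 replicates and at 127, 117, 189.7 and 110.1 in the 4 DG replicates. Every CA3 value was above every DG value, and the log2 fold change of CA3 over DG, which is given below with its SE, was 1.89 ± 0.22 (edgeR quasi-likelihood test, Benjamini-Hochberg adjusted p = 1.0e-15). Prox1 ran the other way, with 50.9, 106, 78.3 and 37.9 CPM in CA3 and 701, 742, 738 and 486 in DG, a log2 fold change of -3.15 ± 0.25 (adjusted p = 1.3e-33). In CA1 of the same sections Prox1 stood at 57.9, 66.3, 42.6 and 36.9 CPM. Because these are bulk samples, fewer cells of a type and less RNA per cell cannot be told apart. Where all 4 values of a region lie above all 4 of the other, the exact permutation test gives p = 0.0286, its smallest value.

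A gene was tested if the 8 replicates together held 10 or more of its UMIs, which 9353 genes did, and 867 of these were called at an adjusted p under 0.05, which is 9.27%. Of these, 401 (4.29% of the genes tested) were higher in CA3 and 466 (4.98%) in DG. CPM did not overlap between regions for 12.9% of the genes tested and for 659 of the 867 called genes. The median log2 fold change over all genes tested was -0.09. DESeq2 called 445 genes, 247 higher in CA3 and 198 in DG, and random thinning of all replicates to one total left 413 calls, 237 higher in CA3 and 176 in DG, so the excess of calls in DG turned into an excess in CA3 under both. Without CA3 replicate 3 the calls were 247 and 356. Of the 154 called genes chosen for naming, 101 were called and 37 not called with DESeq2, and 83 and 57 after thinning, the others having no value there. The losses given gene by gene below are mostly those from leaving out a replicate. Genes with a mean under 10 UMIs per replicate made up 6166 of the genes tested and 260 of the calls. The counts of called genes in the lists below are to be set against the shares of all genes tested. For lists of genes with many UMIs the fitting share is higher.

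**Figure D1:**
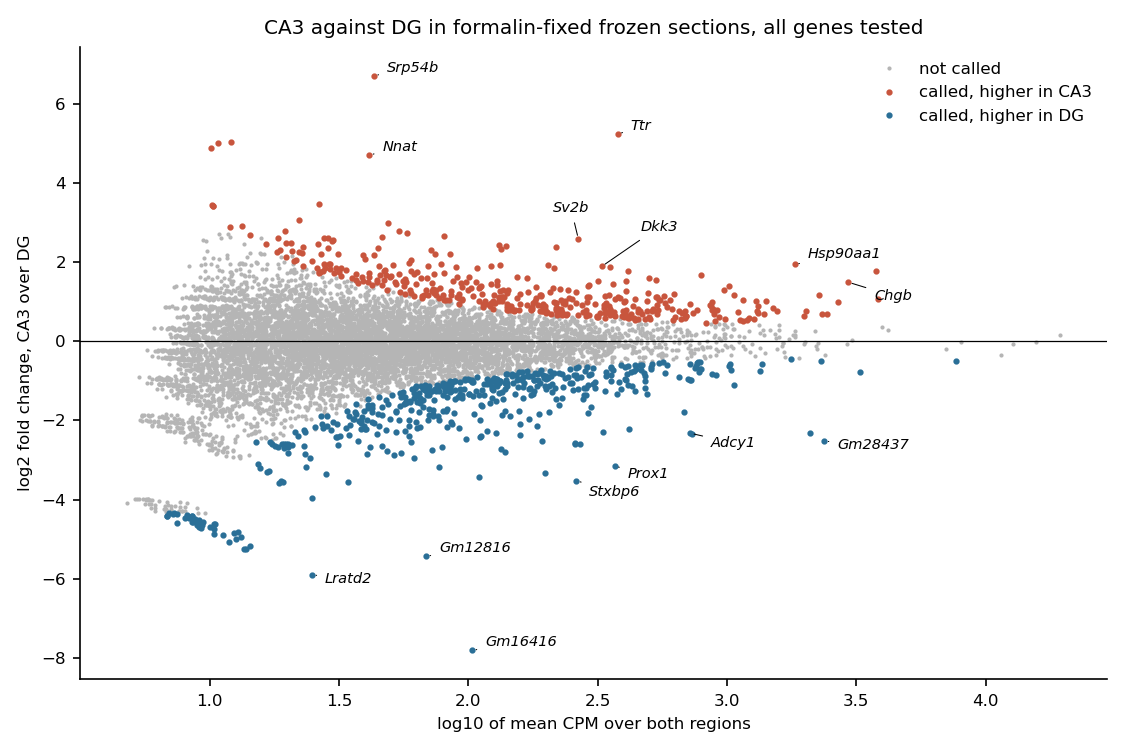
Log2 fold change of CA3 over DG against the log10 of the mean CPM over both regions for the 9353 genes tested, each point a gene, grey if not called, red if called higher in CA3 and blue if called higher in DG. The 867 called genes lie on both sides of 0, and the strings of points at the lower left are genes with few UMIs or none in CA3, whose fitted values depend on the prior count.

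Pyramidal cell genes were higher in CA3. All 5 genes listed for pyramidal cells of CA1 and CA3 were called, with log2 fold changes of 0.72 to 1.89. They include Neurod6, a transcription factor of pyramidal neurons (1.51 ± 0.20), and Nptx1, a secreted pentraxin that gathers AMPA receptors (0.72 ± 0.17). Ociad2 was the weakest of them in the evidence, at 377, 296, 297 and 398 CPM in CA3 and 283, 176, 148 and 239 in DG with a log2 fold change of 0.73 ± 0.22 (adjusted p = 0.017), and its call was lost without CA3 replicate 1, DG replicate 2 or DG replicate 3 (0.58 to 0.63, adjusted p up to 0.14). Of the 8 genes listed for CA3 itself, 6 had enough UMIs to be tested and 5 were called, all higher in CA3, of which 3 were left with DESeq2, 3 after thinning and 2 with filterByExpr, a stricter filter on low counts. Elavl2, a neuronal RNA-binding protein, had 529.6, 628, 767 and 625 CPM in CA3 and 179, 179, 202 and 193 in DG (1.77 ± 0.20, adjusted p = 3.1e-16). Nectin3, an adhesion molecule of synaptic junctions, ranged more widely within CA3, at 387, 240.0, 204 and 114 CPM, and still did not overlap its DG values of 67.1, 52.1, 41.2 and 18.3 (2.40 ± 0.30, adjusted p = 4.4e-13). Socs2, a suppressor of cytokine signaling, was called at 2.79 ± 0.48 although CA3 replicate 4 had no UMI of it. Bok, a member of the BCL2 family, was called at 1.51 ± 0.46 (adjusted p = 0.015) and lost the call without CA3 replicate 1 or 2 or DG replicate 3 (1.31 to 1.49, adjusted p up to 0.091). Iyd and Cdh24 had 9 and 3 UMIs in all and could not be tested. Npy2r, at 0.29, was not called.

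**Figure D2:**
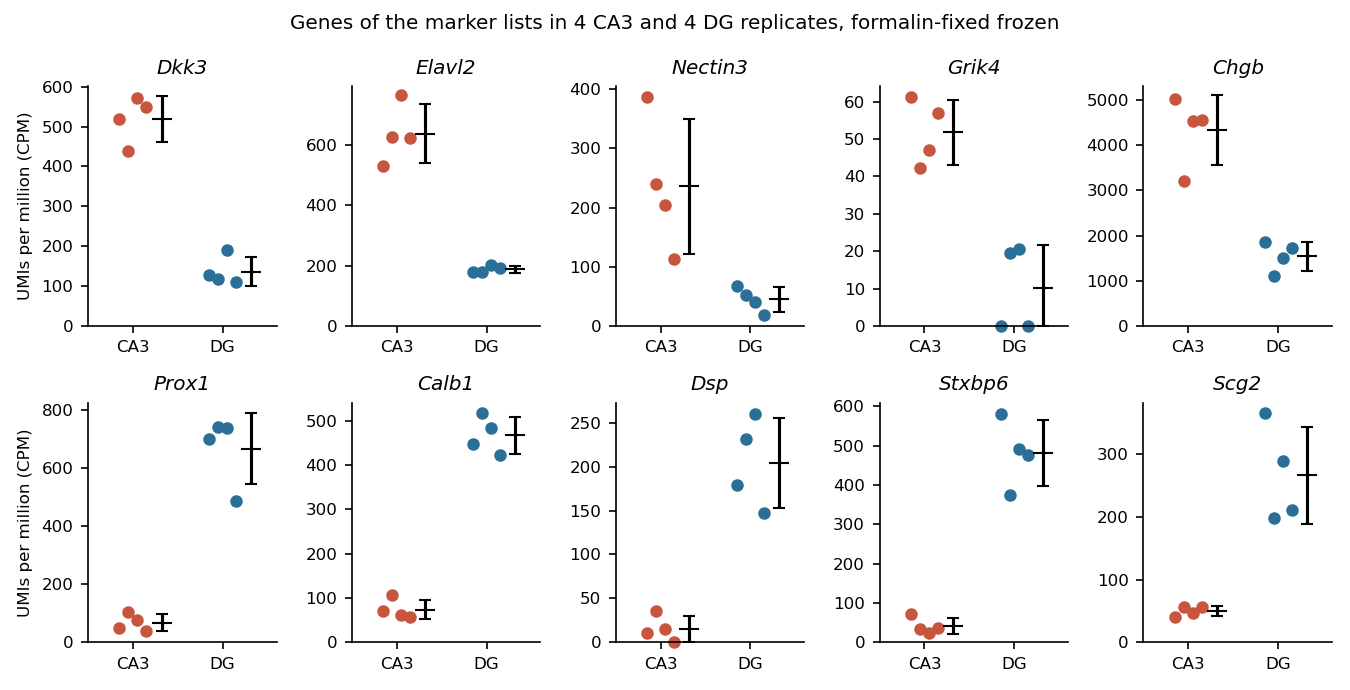
CPM of 5 genes higher in CA3 and 5 genes higher in DG in each of the 4 CA3 (red) and 4 DG (blue) replicates, with the mean and SD beside them (the lower bar ends at 0). In each panel the values of the regions do not overlap, and Grik4 has no UMI in 2 of the 4 DG replicates.

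Granule cell genes were higher in DG. Of the 20 genes of this list 19 were tested and 15 were called, all in that direction, with a list median of -2.58. Stxbp6, an inhibitor of SNARE complex assembly, stood at 71.3, 35.3, 23.5 and 37.9 CPM in CA3 and 581, 374, 491 and 477 in DG (-3.52 ± 0.30, adjusted p = 4.4e-29). Calb1, the calcium buffer calbindin that fills mature granule cells, had 71.3, 106, 62.6 and 56.8 CPM in CA3 and 447, 518, 483 and 422 in DG (-2.58 ± 0.26, adjusted p = 1.6e-20). Dsp, a desmosomal plaque protein, was at 10.2, 35.3, 15.7 and 0 and 179, 231, 259.9 and 147 CPM. C1ql2, a C1q-like protein that mossy fibers secrete onto CA3, changed by -2.80 ± 0.35, and Pdzd2 by -3.17 ± 0.47. Their log2 values moved to -3.41 without CA3 replicate 2 and to -4.31 without CA3 replicate 1, as did that of Dsp, from -3.43 to -4.21 without CA3 replicate 2, each keeping its call. The 4 tested members that were not called were Maml2, Npy1r, Trpc6 and Il16, at -1.27, -0.58, -1.08 and 0.59. Calb2, which marks mossy cells of the hilus as well as interneurons and young granule cells, was higher in DG (-1.73 ± 0.40, with -2.89 without CA3 replicate 2), while the other tested mossy cell gene, Ajap1, was not called (0.15) and Drd2, Csf2rb2 and Glipr1 had at most 1 UMI in all.

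Of 11 genes of the neighboring field CA2, 9 were tested, none was called higher in the region named CA3 by edgeR or by DESeq2, and at an unadjusted p under 0.05 edgeR put 1 higher there. Called higher in DG were 2 genes, and 1 with DESeq2 or after thinning. These were Pcp4, a calmodulin-binding peptide (-0.86 ± 0.16), and Ntf3, the neurotrophin-3 gene, with 2 UMIs in CA3 against 31 in DG. The call of Ntf3 was lost without DG replicate 3 (-2.37, adjusted p = 0.12). Rgs14, a regulator of G protein signaling in CA2, had 27 UMIs in CA3 and 40 in DG (0.36 ± 0.41, adjusted p = 0.69), and Map3k15 and Avpr1b had none in either region. Of the genes listed for CA1, 3 of the 5 tested were called, all higher in DG, namely Wfs1, Mpped1 and Pou3f1. DESeq2 and filterByExpr each called 1 of the CA1 genes and none was called after thinning. In each fresh-frozen condition 1 gene of the list was called higher in CA3 and none in DG, and the list median was 1.04 with TE and -0.52 with HCl, against -1.43 here. Mpped1 (-1.96 ± 0.51) moved to -3.50 without CA3 replicate 1 and lost its call without CA3 replicate 3 (-1.49, adjusted p = 0.060), and Pou3f1, a POU domain factor (-1.43 ± 0.41), lost it without CA3 replicate 2 (-1.30, adjusted p = 0.056). Wfs1, a protein of the endoplasmic reticulum, stood at 20.4, 14.1, 7.83 and 0 CPM in CA3 and 7.45, 117, 37.1 and 73.4 in DG (-2.35 ± 0.59), and without DG replicate 2 it was not called (-1.59, adjusted p = 0.20). In CA1 of the same sections Wfs1 had 174, 453, 375 and 221 CPM.

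Of the genes called higher in CA3 with separate CPM and at least 20 UMIs there, Srp54b had the largest fitted change, with 143, 56.5, 70.5 and 75.8 CPM in CA3 and no UMI in DG, so that it was at least 22.0-fold higher when 3 UMIs over the region are allowed for DG. It had over 3 UMIs in only 3 of the 12 libraries of the series, and it has near-identical copies in the genome whose reads cannot be separated with certainty. Ttr, the thyroxine carrier transthyretin, came next at 1976, 191, 376 and 398 CPM in CA3 and 22.4, 13.02, 20.6 and 27.5 in DG (5.23 ± 0.29, adjusted p = 1.6e-69). CA3 replicate 1 held most of its UMIs, and without that replicate the log2 fold change was 3.93. Nnat, the imprinted gene neuronatin, had 61.1, 49.4, 157 and 56.8 CPM in CA3 against 2 UMIs in all of DG, a ratio of 33.9 with a 95% exact interval of 8.74 to 291 that covers counting error only. Its log2 value fell from 4.70 to 4.05 without CA3 replicate 3. Myh14, a nonmuscle myosin heavy chain, had 21 UMIs against 3 (ratio 13.2, interval 3.94 to 69.1). Lats2, a kinase of the Hippo pathway, Lsm11, a component of the U7 snRNP that processes histone mRNA, Clip2, a microtubule-binding protein, and Il34, a ligand of the CSF1 receptor, followed with 23 to 36 UMIs in CA3 and log2 fold changes of 2.98, 2.73, 2.65 and 2.56.

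The 10 largest of these changes also included Hapln4, a link protein of perineuronal nets, and Sv2b, a synaptic vesicle glycoprotein. Hapln4 had 102, 141, 164 and 170.4 CPM in CA3 and 0, 39.1, 20.6 and 9.17 in DG (2.66 ± 0.39, or 3.44 without DG replicate 2). Sv2b had 448, 508, 571 and 322 and 74.5, 104, 94.9 and 9.17 (2.57 ± 0.24, adjusted p = 2.9e-24). Among the 5 smallest p-values in this direction were also Hsp90aa1, the inducible cytosolic HSP90 chaperone, at 3127, 2421, 2936 and 3125 CPM in CA3 and 827, 641, 833 and 706 in DG (1.94 ± 0.16, adjusted p = 6.5e-32), and Chgb, a granin described below. None of these values overlapped between regions.

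In DG the largest fitted changes belonged in part to genes with no UMI in CA3, for which only a lower bound can be given. Lratd2 was at least 6.72-fold higher in DG and Akain1, an inhibitor of protein kinase A anchoring, at least 4.42-fold, with 38 and 25 UMIs there. Zfp280b and Gm42710 had 20 and 25 UMIs in DG and bounds of 3.54 and 4.42. Abcb10, a mitochondrial ABC transporter, and Prkd1, protein kinase D1, each had 1 UMI in CA3 against 30 and 29 in DG, ratios of 15.9 (exact interval 2.64 to 649) and 15.4 (2.55 to 628). Without CA3 replicate 2, which held that UMI, the fitted log2 values of Abcb10 and Prkd1 moved from -3.57 to -5.55 and from -3.55 to -5.53, and that of Akain1 moved from -5.25 to -4.60 without DG replicate 2, all still called.

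Of the 10 genes with the largest fitted changes in DG, 3 were processed pseudogenes, whose reads may belong to their parent genes. Gm16416 on chromosome 13 (GRCm38, chr13:103397109-103397591) had 179, 94.4, 132 and 422 CPM in DG and none in CA3, at least 23.2-fold. Gm12816 on chromosome 4 (chr4:112955075-112956286) had 110 UMIs in DG and 1 in CA3 (ratio 58.3, interval 10.3 to 2325), and Rps12-ps24 had 22 and 0. The fitted log2 value of Gm12816 moved from -5.43 to -7.44 without CA3 replicate 3 and that of Rps12-ps24 from -5.07 to -4.46 without DG replicate 2. The other 10 libraries of the series together held 3, 5 and 4 UMIs of these genes. Each had over 3 UMIs in 1 of the 12 libraries, and region and library cannot be told apart for them.

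Prox1os, a noncoding gene on the strand opposite to Prox1, had 22.4, 19.5, 45.4 and 27.5 CPM in DG and none in CA3, at least 4.07-fold higher in DG. Prox1os (chr1:190170296-190217276, plus strand) and Prox1 (chr1:190118035-190170714, minus strand) overlap at their starts by 419 bases. The counting command in the study's methods sets no strand option, and the default of that tool ignores strand, so reads in that overlap cannot be told apart. These positions are from GENCODE. RefSeq places the start of Prox1 further upstream, and the 250 bases before the RefSeq start, which lie inside Prox1os, are shown because both transcripts were higher in DG (GRCm38, chr1:190170828-190171077, minus strand, from RefSeq).

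Prox1: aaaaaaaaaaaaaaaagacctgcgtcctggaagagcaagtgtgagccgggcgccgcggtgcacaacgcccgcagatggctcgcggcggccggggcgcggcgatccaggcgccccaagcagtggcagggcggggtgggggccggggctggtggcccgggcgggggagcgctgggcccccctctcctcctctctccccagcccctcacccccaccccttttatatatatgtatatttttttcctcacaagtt

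The smallest p-values among genes higher in DG included Dgkh, a diacylglycerol kinase, with 285, 226, 250.5 and 189 CPM in CA3 and 1342, 1328, 1184 and 1037 in DG (-2.34 ± 0.19, adjusted p = 2.3e-31). Adcy1, the calcium-stimulated adenylyl cyclase of neurons, had 234, 318, 219 and 152 and 902, 1556, 1196 and 1184 CPM (-2.32 ± 0.19, adjusted p = 3.0e-31). Every DG replicate was above every CA3 replicate for both genes. Gm28437 and Gm28661, which also stood among the 5 smallest p-values, belong to a group of unprocessed pseudogenes described with the other conditions.

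Glutamate receptor genes were called in both directions, where 4.29% of all genes tested were called higher in CA3 and 4.98% in DG. Of the 6 tested genes of the kainate list 3 were called, all higher in CA3. Grik4, a high-affinity kainate receptor subunit, had 61.1, 42.3, 47.0 and 56.8 CPM in CA3 and 0, 19.5, 20.6 and 0 in DG (1.86 ± 0.59, adjusted p = 0.025), and its call was lost without CA3 replicate 1 or 3 or DG replicate 1 or 4 (1.57 to 1.85, adjusted p up to 0.084). Neto1 and Neto2, the auxiliary subunits of kainate receptors, changed by 1.47 ± 0.35 (adjusted p = 7.7e-04) and 1.34 ± 0.31 (adjusted p = 6.3e-04). The subunits Grik2 and Grik5 were not called, at -0.55 ± 0.40 and 0.39 ± 0.34. Of 10 AMPA receptor genes, 3 were called higher in DG. Cnih3, a cornichon that slows AMPA receptor closing, had 0, 28.2, 7.83 and 18.9 CPM in CA3 and 96.9, 124, 136 and 82.6 in DG (-2.94 ± 0.49, adjusted p = 1.9e-07, with -3.86 without CA3 replicate 2). Shisa9, an auxiliary subunit known from granule cells, changed by -1.86 ± 0.41 (adjusted p = 2.1e-04). The subunit Gria1 was lower in CA3 by a small step (-0.54 ± 0.17) and lost its call without CA3 replicate 3 or DG replicate 3 (adjusted p up to 0.084), and Gria2 was not called (-0.42 ± 0.15, adjusted p = 0.058). None of 5 NMDA receptor genes was called by edgeR or by DESeq2, and 0 had an unadjusted p under 0.05, with log2 fold changes from -0.85 to 0.33. Of 6 metabotropic receptor genes only Grm2, a presynaptic receptor of mossy fibers, was called, with no UMI in CA3 and 14 in DG, a bound of 2.47, and it lost the call in 5 of the 8 fits that left out a replicate (adjusted p up to 0.12). With DESeq2 the kainate list had 2 calls and the metabotropic list none, and after thinning 1 and none. With filterByExpr the AMPA list had 1 call in CA3 and 4 in DG.

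While 4.98% of all genes tested were called higher in DG, 4 of 11 tested GABA-A receptor genes were called, all in DG. Among them Gabra4, which encodes a subunit of the chloride channel, had 112, 191, 180.1 and 265 CPM in CA3 and 298, 381, 318 and 358 in DG (-0.92 ± 0.23, adjusted p = 0.0019), and its values did not overlap between regions. The list median was -0.59, against -0.09 for all genes tested, and it was -0.34 without CA3 replicate 3, DG replicate 2 or DG replicate 3. In fresh-frozen sections 1 gene of the list was called higher in DG with TE and 1 in each direction with HCl, with medians of -0.19 and -0.21.

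Potassium channels were divided between the regions. Of 46 tested genes of this list 4 were called higher in CA3 and 7 in DG, where 4.29% and 4.98% of all genes tested were. Kcnq5, a subunit of the M-current, had 306, 191, 188 and 189 CPM in CA3 and 74.5, 26.0, 37.1 and 36.7 in DG (2.44 ± 0.32, adjusted p = 6.0e-12). Kcnab2, a cytoplasmic beta subunit, changed by 1.07 ± 0.20 (adjusted p = 8.4e-06). In DG, Kcna4, an A-type channel of axons, was higher (-2.23 ± 0.51, adjusted p = 4.7e-04), and so were Kcnj4, an inward rectifier (-2.10 ± 0.63), and Kcnip4, a subunit that modulates Kv4 channels (-0.97 ± 0.27). Kcnj4 lost its call without CA3 replicate 3 (-1.95, adjusted p = 0.060) and Kcnip4 without CA3 replicate 1 (-0.75, adjusted p = 0.079). DESeq2 called 2 genes in each direction, and after thinning 2 were called in CA3 and 3 in DG.

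Of the 31 tested genes for calcium binding and calmodulin kinases 4 were called in each direction, where 4.29% and 4.98% of all genes tested were. Higher in CA3 were Camk1d (1.13 ± 0.18, adjusted p = 3.7e-08), Camk4 (0.97 ± 0.23) and Camkk2 (0.76 ± 0.20), which are kinases of the CaM kinase cascade, and Vsnl1, a neuronal calcium sensor (0.65 ± 0.17). Camk1d stood at 662, 812, 759 and 758 CPM in CA3 and 283, 371, 441 and 220.2 in DG. Higher in DG were Camk2g, a CaM kinase II subunit (-1.12 ± 0.26), and Calb1, Calb2 and Pcp4, given above. After thinning 5 genes of the list were called in CA3 and 2 in DG.

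The neuropeptide and granin genes were called in both directions. Of 28 tested genes of this list, 5 were called higher in CA3 and 7 in DG, where 4.29% and 4.98% of all genes tested were. Chgb, the granin chromogranin B of dense-core vesicles, had 5021, 3218, 4532 and 4564 CPM in CA3 and 1849, 1097, 1497 and 1716 in DG (1.49 ± 0.15, adjusted p = 4.9e-20). Scg2, the granin secretogranin II, went the other way, with 40.7, 56.5, 47.0 and 56.8 CPM in CA3 and 365, 199, 289 and 211 in DG (-2.37 ± 0.32, adjusted p = 1.2e-11). Neither gene's values overlapped between the regions. The other genes called in CA3 were Cpe, carboxypeptidase E (1.07 ± 0.15), Scg5, the chaperone of a prohormone convertase (1.04 ± 0.18), that convertase, Pcsk2 (0.62 ± 0.17), and Cck, the neuropeptide cholecystokinin (1.00 ± 0.16), which were named after their values were seen. Pcsk2 lost its call without CA3 replicate 3 or 4 or DG replicate 3 (0.51 to 0.54, adjusted p up to 0.072). In DG the opioid precursor gene Penk had 60 UMIs against 7 in CA3 (-2.07 ± 0.53, adjusted p = 0.0023), and Pdyn, the prodynorphin gene of mossy fibers, had 14.9, 19.5, 20.6 and 9.17 CPM in DG and no UMI in CA3. With 14 UMIs, its bound was 2.47-fold, and it lost its call without any 1 of the 4 CA3 replicates (adjusted p 0.061 to 0.11). Tac2, the neurokinin B gene, had 22.4, 0, 49.5 and 0 CPM in DG and none in CA3, came from DG replicates 1 and 3 alone, and lost its call in the same way (adjusted p 0.052 to 0.092). The other genes called in DG were Ntf3, Npy5r, a neuropeptide Y receptor (-2.61 ± 0.86), and Adcyap1r1, the PACAP receptor (-1.65 ± 0.51). Ntf3 lost its call without DG replicate 3, Npy5r without CA3 replicate 2, 3 or 4 or DG replicate 4 (adjusted p up to 0.16) and Adcyap1r1 without CA3 replicate 1 (-1.47, adjusted p = 0.063). Npy was not called (0.38 ± 0.33). With DESeq2 or after thinning, 5 genes of the list were called higher in CA3 and 1 in DG.

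Both granin genes share a cAMP response element (CRE, TGACGTCA) close to their starts while moving in opposite directions, and the 250 bases upstream of each are shown with that element in capitals. The sequences are those of RefSeq on GRCm38, with Chgb at chr2:132781392-132781641 on the plus strand and Scg2 at chr1:79440027-79440276 on the minus strand, and the element begins 72 bases upstream of the start in Chgb and 68 in Scg2.

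Chgb: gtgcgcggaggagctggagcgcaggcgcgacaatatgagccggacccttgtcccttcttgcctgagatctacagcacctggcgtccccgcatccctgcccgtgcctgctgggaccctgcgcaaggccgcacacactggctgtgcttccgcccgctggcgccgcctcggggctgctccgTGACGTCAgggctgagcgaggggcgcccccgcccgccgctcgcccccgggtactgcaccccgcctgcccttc

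Scg2: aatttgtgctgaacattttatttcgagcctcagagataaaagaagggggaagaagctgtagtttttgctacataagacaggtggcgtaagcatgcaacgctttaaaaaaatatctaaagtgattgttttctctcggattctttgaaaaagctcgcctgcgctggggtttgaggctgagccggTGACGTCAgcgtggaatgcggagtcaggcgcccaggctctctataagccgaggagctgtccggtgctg

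The element, which reads the same on both strands, occurred within 250 bases before to 50 bases after the start in 2.03% of all genes with a promoter entry and in 3.93% of the 7167 tested genes that had one. It occurred in 14 of 288 genes called higher in CA3 (4.86%) and 11 of 341 called higher in DG (3.23%). A match is a description of the sequence only.

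Of 33 tested synapse organizers 5 were called higher in CA3 and 4 in DG, where 4.29% and 4.98% of all genes tested were. Besides Nectin3 and Nptx1, Nptxr, the pentraxin receptor, had 1365, 1405, 1644 and 1496 CPM in CA3 and 768, 596, 635 and 633 in DG (1.17 ± 0.16, adjusted p = 5.3e-11), and Nrxn3, a neurexin, had 743, 790.5, 877 and 833 and 439.8, 400.5, 425 and 303 (1.03 ± 0.18, adjusted p = 4.4e-07). Tenm4 was the fifth (1.42 ± 0.45) and lost its call in 4 of the 8 fits without a replicate (adjusted p up to 0.24). In DG, Lrrtm4, a postsynaptic adhesion protein of granule cell dendrites, had 20.4, 21.2, 7.83 and 0 CPM in CA3 and 119, 140, 103 and 27.5 in DG (-2.82 ± 0.50, adjusted p = 1.1e-06), and C1ql3, the paralog of C1ql2, was called at -2.20 ± 0.68 but not without CA3 replicate 1 or 2 or DG replicate 3 (adjusted p up to 0.097). Cbln1 had 15 UMIs in DG and none in CA3, and its call was lost without CA3 replicate 1, 2 or 3 or DG replicate 4 (adjusted p up to 0.090). With DESeq2 or after thinning 4 genes of the list were called in CA3 and 2 in DG.

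Of 43 axon guidance genes 3 were called higher in CA3 and 4 in DG, where 4.29% and 4.98% of all genes tested were, and DESeq2 called 2 each way and thinning left 1 each way. Slit2, a ligand of Robo receptors, and Plxna1, a semaphorin receptor, were higher in CA3 (1.49 ± 0.33 and 1.78 ± 0.43), and Slit2 had 2.13 without DG replicate 3. Sema5a, a transmembrane semaphorin, was higher in DG with 122, 176, 157 and 94.7 CPM in CA3 and 373, 498, 483 and 477 in DG (-1.65 ± 0.23, adjusted p = 9.8e-11), as were Epha7, an ephrin receptor (-0.89 ± 0.18), and Neo1, the netrin and RGM receptor neogenin (-1.77 ± 0.47). The remaining calls were Rgmb in CA3 (1.09 ± 0.36) and Ntng1 in DG (-0.96 ± 0.33), which lost them in 5 and 6 of the 8 fits without a replicate (adjusted p up to 0.12 and 0.20), and Ntng1 had -1.62 without CA3 replicate 2. Of 22 cadherins and protocadherins 3 were called each way, 2 each way with DESeq2 and 1 each way after thinning. Cdh2, N-cadherin of synaptic junctions, was higher in CA3 (0.98 ± 0.26), as was Pcdh7 (1.19 ± 0.31), and Pcdh17 and Pcdh8 were higher in DG (-1.88 ± 0.32 and -1.20 ± 0.28). Pcdh1 (1.02 ± 0.30) lost its call without CA3 replicate 2 or 3 (adjusted p up to 0.099) and Pcdh19 (-0.90 ± 0.31) without CA3 replicate 2 or 4 or DG replicate 2 or 3 (adjusted p up to 0.30).

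Transcription factors leaned toward DG here, with 15 of 36 tested genes called higher in DG and 4 in CA3. Of all genes tested, 4.98% were called higher in DG and 4.29% in CA3. The list median was -0.48. In fresh-frozen TE sections 6 genes of the list were called in DG and 3 in CA3, with a median of -0.14. With HCl these were 7 and 3, with a median of -0.17. Besides Prox1, Bcl11b, a zinc finger factor of granule cells, had 50.9, 169, 141 and 56.8 CPM in CA3 and 507, 648, 648 and 440.4 in DG (-2.28 ± 0.23, adjusted p = 3.9e-20). Rfx3, known from cilia formation, had 61.1, 84.7, 15.7 and 75.8 and 246, 397, 313 and 349 CPM (-2.51 ± 0.29), and Nfia, a nuclear factor I protein, changed by -1.45 ± 0.23. Higher in CA3 were Neurod6, Lmo4 (0.80 ± 0.18), Bcl11a (0.71 ± 0.21), the paralog of Bcl11b, and Sox5 (1.55 ± 0.51), of which Lmo4 and Bcl11a were named after their values were seen. Bcl11a lost its call without CA3 replicate 3 (0.65, adjusted p = 0.060), and that of Sox5 was lost without CA3 replicate 2 or DG replicate 1, 3 or 4 (adjusted p up to 0.51). Among genes higher in DG, Etv1, Lhx2, Lmo3, Zbtb20 and Zfpm2 lost their calls without 1 replicate or another (adjusted p up to 0.21). DESeq2 called 9 genes in DG and 3 in CA3, and thinning left 8 and 3.

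Of 13 tested adult neurogenesis genes 4 were called higher in DG and 1 in CA3, where 4.98% and 4.29% of all genes tested were. The list median was -1.22. In fresh-frozen TE sections 4 genes of the list were called in DG and 2 in CA3, with a median of -0.11. With HCl these were 3 and 1, with a median of -0.005. Neurod1, a proneural factor of newborn granule cells, had 40.7, 28.2, 31.3 and 75.8 CPM in CA3 and 127, 153, 132 and 73.4 in DG (-1.70 ± 0.38, adjusted p = 3.1e-04), with CA3 replicate 4 just above DG replicate 4. Sox11, a factor of immature neurons, Tubb2b, a tubulin of growing neurites, and Sox2, a factor of neural stem cells and astrocytes, changed by -1.28 ± 0.30, -1.46 ± 0.25 and -1.58 ± 0.44. Lpar1, a lysophosphatidic acid receptor that is found in neural progenitors and in oligodendrocytes, was the member called higher in CA3 (1.44 ± 0.39), and it lost the call without CA3 replicate 2 (1.28, adjusted p = 0.062). Dcx, which marks young neurons, had 8 UMIs in CA3 and 30 in DG and was not called (-1.01 ± 0.61, adjusted p = 0.36), and the cell cycle genes Mki67 and Top2a had 5 and 2 UMIs in all, too few to test.

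Of the immediate early genes, Jun was higher in DG, at 50.9, 70.6, 7.83 and 18.9 CPM in CA3 and 209, 176, 198 and 211 in DG (-2.25 ± 0.35, adjusted p = 1.3e-08, with -2.92 without CA3 replicate 2). Nr4a3, a nuclear receptor of the Nr4a family, was higher in CA3, at 275, 191, 211 and 265 against 44.7, 84.7, 70.1 and 91.7 CPM (1.64 ± 0.28, adjusted p = 6.2e-07). Dusp6 was called in CA3 (1.19 ± 0.40) and lost the call in 6 of the 8 fits without a replicate (adjusted p up to 0.18) and with DESeq2, and 14 of the 17 tested genes were not called. Of 8 corticosteroid genes only Nr3c1, the glucocorticoid receptor, was called (-0.88 ± 0.27, higher in DG), not without CA3 replicate 3 or DG replicate 3 (adjusted p up to 0.10) nor with DESeq2, while Nr3c2, the mineralocorticoid receptor, was not called (-0.43 ± 0.33, adjusted p = 0.50).

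**Figure D3:**
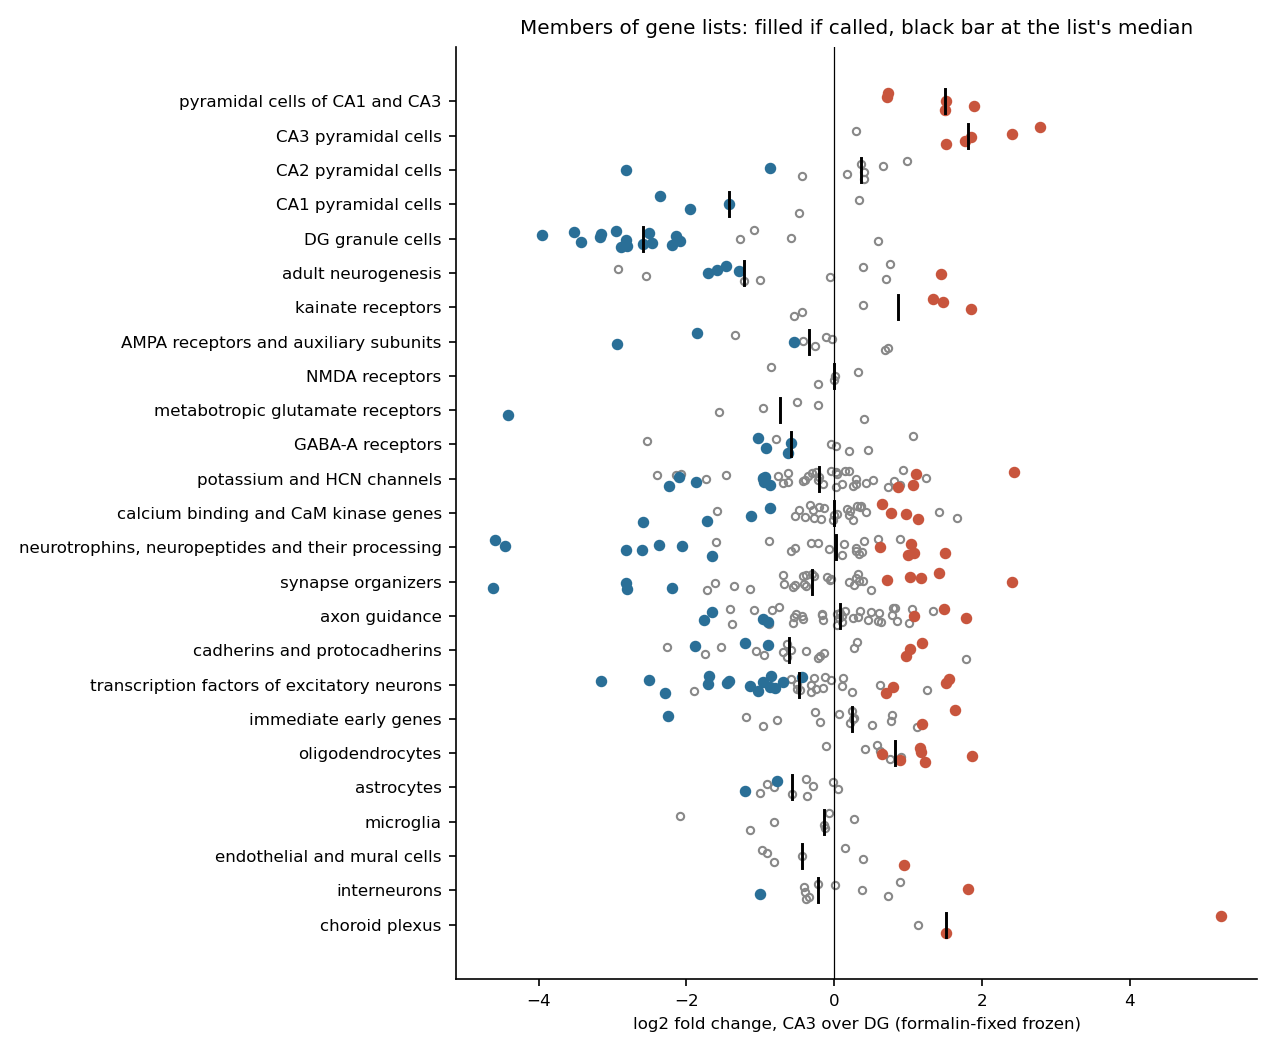
Log2 fold change of CA3 over DG for the tested members of 25 gene lists, each point a gene, filled red if called higher in CA3, filled blue if called higher in DG and open if not called, with a black bar at the median of each list. The granule cell list lies at the left with a median of -2.58, and the lists of pyramidal cells and of CA3 lie at the right, with medians of 1.49 and 1.81. Genes with no UMI in CA3, such as Tac2 and Cbln1, are drawn at their fitted values, which depend on the prior count.

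Among the lists for other cell types, that of oligodendrocytes had the most calls. Of its 12 genes all were tested and 6 were called, all higher in CA3, with a list median of 0.82. The summed level of the list was 3996 to 7116 CPM in CA3 and 2370 to 3425 CPM in DG, and none of its genes was at 0 in either region. Mal, Cldn11 and Mobp, which encode proteins of myelin, changed by 1.86 ± 0.25, 1.23 ± 0.19 and 1.17 ± 0.25. Mbp changed by 0.65 ± 0.17, its values overlapped, and it was not called without CA3 replicate 2 (0.45, adjusted p = 0.12). Cnp was also called (0.89 ± 0.26), a call lost without CA3 replicate 2 or 3 or DG replicate 1 or 3 (adjusted p up to 0.27). Enpp2, the lysophospholipase autotaxin, is made by oligodendrocytes as well as by choroid plexus and had 693, 395, 509 and 284 CPM in CA3 and 134, 189, 186 and 147 in DG (1.52 ± 0.21, adjusted p = 1.3e-10).

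Of 11 tested astrocyte genes 2 were higher in DG, namely Slc1a3, a glutamate transporter (-0.77 ± 0.21), and Atp1b2, a sodium pump subunit (-1.21 ± 0.23), and the summed list stood at 2208 to 2887 CPM in CA3 and 2937 to 3682 in DG. Without CA3 replicate 2 or DG replicate 1 the astrocyte calls were 5, and without DG replicate 4 they were 4. None of 7 microglial genes was called by edgeR or by DESeq2, and 1 had an unadjusted p under 0.05, higher in DG. Of 7 endothelial and mural genes only Bsg was, higher in CA3 (0.94 ± 0.33), and it lost the call in 6 of the 8 fits without a replicate (adjusted p up to 0.23) and with DESeq2. Interneuron genes had 1 call each way among 11, where 4.29% of all genes tested were called in CA3 and 4.98% in DG. Gad1, which makes GABA and is also expressed by granule cells, was higher in DG (-1.001 ± 0.19, adjusted p = 1.6e-05), and Pvalb, of fast-spiking cells, was called in CA3 (1.81 ± 0.59), not without CA3 replicate 2 (1.14, adjusted p = 0.44) or DG replicate 1, 2 or 3 (1.53 to 1.76, adjusted p up to 0.087). Of the 8 choroid plexus genes, Ttr and Enpp2 were called in CA3, and Kl was tested and not called (1.14). Folr1 and Clic6 had 1 UMI each in CA3 and none in DG, Otx2 had 3 in DG and none in CA3, and Kcnj13 and Aqp1 had none in either. The summed list ranged from 593 to 2699 CPM in CA3 and from 157 to 223 in DG. What part these cell types have in the differences between regions was not tested.

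Of 77 tested cytosolic ribosomal protein genes 9 were called, all higher in DG, where 4.98% of all genes tested were. The list median was -0.34, and thinning left 3 calls. In fresh-frozen HCl sections 20 genes of this list were called higher in CA3 and none in DG, with a median of 0.59, and with TE 2 were called in DG. Rpl7, Rpl3 and Rpl36a had the largest changes among those called (-0.89 ± 0.21, -0.83 ± 0.20 and -0.80 ± 0.24), and Rpl36a lost its call without CA3 replicate 3 or 4 or DG replicate 3 (adjusted p up to 0.071). With HCl, Rpl7 and Rpl36a were called higher in CA3 (0.66 and 1.03). Of 77 nuclear genes of the respiratory chain 4 were called in CA3 and 2 in DG, so that 6 were called where 9.27% of all genes tested were, with a median of 0.17, and Atp5o, a subunit of ATP synthase, had the smallest adjusted p of those in CA3 (0.76 ± 0.18, adjusted p = 0.0011). DESeq2 called 1 gene of this list in each direction. Of 13 mitochondrially encoded genes 5 were called, all higher in DG, with mt-Rnr1, the small ribosomal RNA, at -0.76 ± 0.15, and mt-Nd2, mt-Nd5 and mt-Nd6 lost their calls without CA3 replicate 2 or 3, and mt-Nd2 also without DG replicate 1 or 4 (adjusted p up to 0.13). DESeq2 called 2 of the mitochondrially encoded genes, both in DG, and after thinning 1 was called in each direction. With repeated UMIs corrected 7 were called in DG, and the list median moved from -0.06 to -0.53. The UMI is 6 bases long, which gives 4096 different sequences, and mt-Rnr2 stood at 4036 and 3694 in DG replicates 2 and 3, so that its count was limited there. As counted it changed by 0.15 ± 0.15 and was not called, and after correction for UMIs drawn more than once it was called higher in DG (-0.53, adjusted p = 0.0017). Gapdh, with 13 UMIs in CA3 and 11 in DG, was not called (1.16 ± 0.67).

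The same contrast in the other 3 conditions, which share no replicates with this one, asked how far the formalin-fixed differences were found in other sections. In fresh-frozen TE sections 1138 of 14386 genes were called (7.91%), in fresh-frozen HCl sections 1363 of 15161 (8.99%) and in paraffin sections 301 of 9380 (3.21%). Of the 867 genes called in formalin-fixed frozen sections, 388 were called with the same sign in fresh-frozen TE sections, which is 44.8% of the 867 and 34.1% of the calls there. The shares were 48.8% and 31.0% with HCl (423 genes) and 15.1% and 43.5% in paraffin (131 genes). Whether called there or not, 88.5%, 88.6% and 86.9% of those tested had the same sign, against 62.4%, 63.0% and 61.9% of all genes tested in both. Genes called higher in CA3 here had a median of 1.11 here and 0.61 in fresh-frozen TE sections, and those higher in DG -1.36 and -0.48. The genes were selected by their adjusted p in the formalin-fixed sections, and the fresh-frozen values were not.

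In all 4 conditions 86 genes were called with 1 sign, 37 higher in CA3 and 49 in DG. They include Dkk3, Neurod6, Chgb, Sv2b, Hapln4, Kcnq5, Plxna1 and Nptxr in CA3 and Prox1, Calb1, Stxbp6, Dsp, C1ql2, Ahcyl2, Rfx3, Bcl11b, Dgkh, Adcy1, Calb2 and Pcp4 in DG. Dkk3 had log2 fold changes of 1.77, 1.67 and 1.49 in fresh-frozen TE, fresh-frozen HCl and paraffin sections, and Prox1 -2.38, -2.09 and -2.16. Elavl2 was called in both fresh-frozen conditions (0.94 and 1.18) and not in paraffin (0.05). All 12 oligodendrocyte genes were called higher in CA3 in each fresh-frozen condition, with list medians of 1.57 and 1.49, and 1 of 12 in paraffin, with a median of 0.45. Wfs1 was not called in any other condition (0.10, -0.74 and -1.03).

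The effect of region was then tested against that in fresh-frozen TE sections, which differ in fixation before cutting, with an interaction term. The study's protocol also treats frozen sections briefly with PFA after cutting. The interaction was called for 36 of 9258 genes (0.389%). DESeq2 called 55 genes, and edgeR 18 without fresh-frozen DG replicate 3, 23 without formalin-fixed CA3 replicate 3 and 17 without formalin-fixed DG replicate 3. The fresh-frozen TE replicates of CA3 and DG held 294445 to 1111804 UMIs, more than all but 1 of the formalin-fixed ones. Fixation and depth thus moved together, and the part of depth was tested only by thinning, which left 15 calls. The highest count of a gene in these fresh-frozen replicates was 4093 to 4317, where 4096 different UMIs exist. The interaction was not corrected for repeated UMIs. Ttr had the largest positive term, at 6.95 ± 0.89 (adjusted p = 1.7e-07). In fresh-frozen TE sections it had 2012 UMIs in CA3 and 4085 in DG, with a log2 fold change of -1.63, and the values in HCl and paraffin sections were -1.52 and -1.63, neither called. Enpp2, the other choroid plexus gene, had a term of 2.54 ± 0.44 (adjusted p = 3.2e-04) and a fresh-frozen TE value of -0.95. Hsp90aa1 was higher in CA3 in both, by 1.94 in formalin-fixed and 0.47 in fresh-frozen TE sections (term 1.54 ± 0.22, adjusted p = 3.0e-06). Thy1, a surface glycoprotein of projection neurons, had 1742, 1701, 1707 and 1761 CPM in CA3 and 813, 859.5, 846 and 889.9 in DG here (1.02 ± 0.16) and differed little in fresh-frozen TE sections (0.14, term 0.96 ± 0.21, adjusted p = 0.018). Its interaction was not called without fresh-frozen CA3 replicate 3 or fresh-frozen DG replicate 1 or 2 (0.82 to 1.17 over all the alternatives). Slc17a7, the vesicular glutamate transporter of these neurons, had 1.51 ± 0.34 here and -0.10 in fresh-frozen TE sections (term 1.70 ± 0.39, adjusted p = 0.027), but the call held in 10 of 20 alternatives only.

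**Figure D4:**
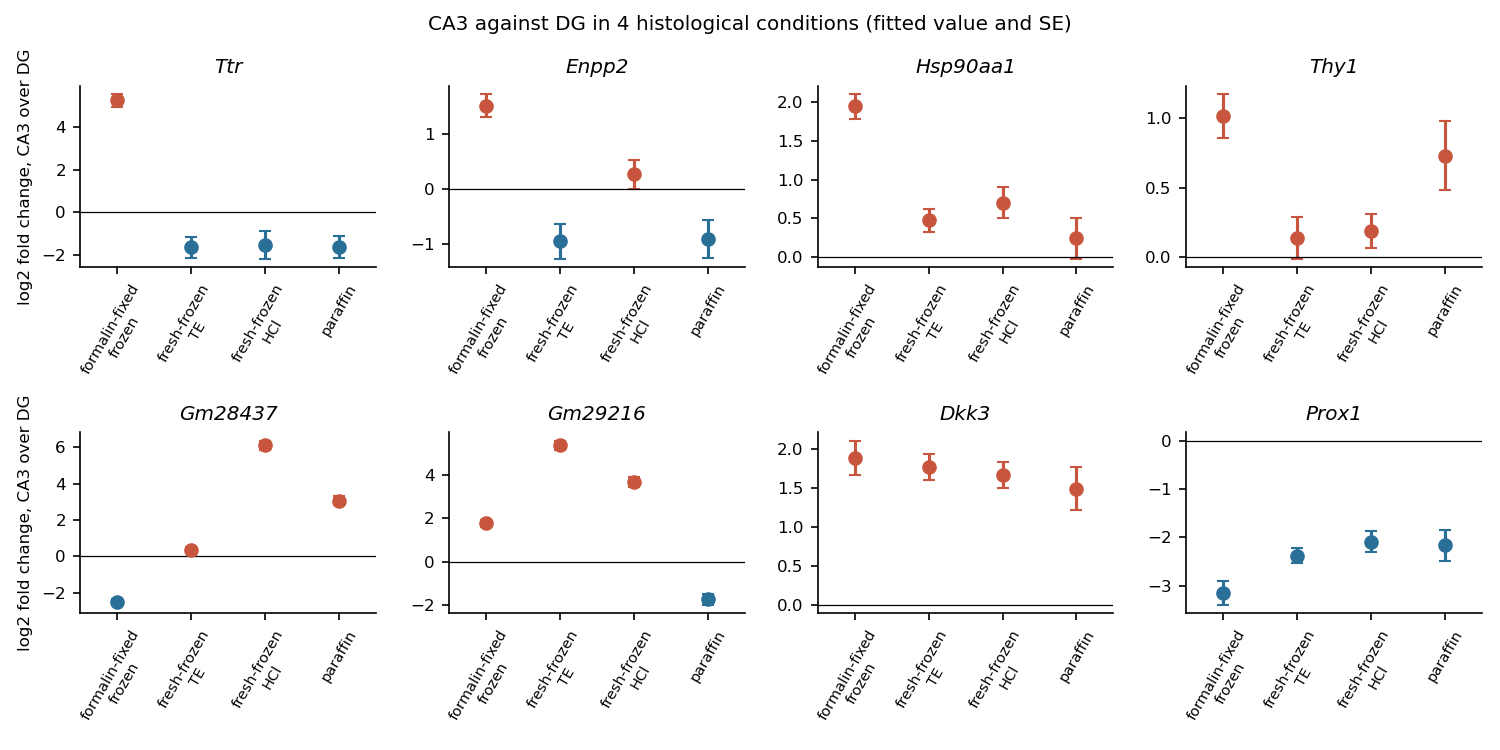
Log2 fold change of CA3 over DG with its SE for 8 genes in the 4 conditions, red if above 0 and blue if below, with a separate scale for each gene. Dkk3 and Prox1 keep their signs in all conditions, Ttr is positive in formalin-fixed frozen sections only, and the pseudogenes Gm28437 and Gm29216 change sign between conditions.

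The 6 smallest interaction p-values belonged to pseudogenes. Gm28437, Gm10925, Gm28661 and Gm29216 are unprocessed pseudogenes that follow each other on chromosome 1 (GRCm38, chr1:24613189-24616197), and Gm13341 is one on chromosome 2. Genes of this kind can share reads with near-identical sequences elsewhere in the genome and are uncertain for that reason. Gm28437 had 754, 671, 595 and 852 CPM in CA3 and 4338, 3542, 3403 and 4835 in DG (-2.52 ± 0.17), whereas its neighbor Gm29216 was higher in CA3, at 6987, 4828, 4509 and 7026 CPM against 1856, 1332, 1745 and 1890 (1.76 ± 0.15). Gm10925 and Gm28661 were higher in DG (-1.79 ± 0.19 and -2.31 ± 0.16), and Gm13341 was not called (-0.11 ± 0.15). In the other conditions Gm28437 had 0.35 with TE, 6.12 with HCl and 3.07 in paraffin, and Gm29216 had 5.36, 3.66 and -1.74. Region and library cannot be told apart for these genes. The processed pseudogene Rpl37rt had -0.74 ± 0.16 here, -4.04 in fresh-frozen TE and 1.70 in paraffin sections.

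Of the 867 called genes, 4, 11 and 14 were called with the opposite sign in fresh-frozen TE, fresh-frozen HCl and paraffin sections. Gm10925 and Atp5d, a subunit of ATP synthase, were among them in all 3 conditions, with Atp5d at -0.72 ± 0.25 here and 0.95, 0.84 and 2.24 there. These genes were chosen after their values were seen. The call of Atp5d in formalin-fixed frozen sections was lost without CA3 replicate 1, 3 or 4 or DG replicate 2, 3 or 4 (-0.80 to -0.62, adjusted p up to 0.15), and 13 of the 18 alternatives in all did not call it. With DESeq2 it had -0.71 (adjusted p = 0.15) and after thinning -0.22 (adjusted p = 0.85). Ttr, in fresh-frozen TE sections, was the gene of this kind with the largest change here. The mitochondrially encoded genes mt-Co1, mt-Nd2, mt-Nd5 and mt-Nd6 were higher in DG here and higher in CA3 with HCl.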

How the data were processed

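Photo-isolation chemistry libraries were sequenced from the 3′ ends of transcripts, and the authors deposited raw UMI counts per gene, 32546 genes by 48 replicates, as 1 table. The submitters' processing notes name UMI-tools 1.0.0, HISAT2 2.1.0, featureCounts 1.6.4, DESeq2 1.20.0 and the build GRCm38. The counting command in the study's methods sets no strand option, so strand was ignored by default. The annotation release is not given in the sources used here. A 6-base UMI has 4096 different sequences, so the count of a gene in a replicate is limited near that number. The highest count in the table was 4356, in fresh-frozen HCl CA1 replicate 3. Why it lies above 4096 was not tested. The table of barcodes was not used, and 773 genes without a symbol are called by their identifiers.

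Columns were assigned to groups by their names. Genes with 10 or more UMIs over the replicates of a fit were tested with the quasi-likelihood test of edgeR 4.0.16 (R 4.3.3, TMM scaling, no covariate), two-sided, with Benjamini-Hochberg adjustment over all genes of the fit and a threshold of 0.05. The SE of an edgeR log2 fold change was not fitted directly. It was derived as the absolute log2 fold change divided by the square root of the test's F statistic. Exact permutation tests were two-sided, in scipy 1.17.1. Ratios against 1 to 3 UMIs carry 95% exact intervals, and a region at 0 was set to a floor of 3 UMIs over its 4 replicates. Both cover counting error only. Depth ranged from 52800 to 307145 UMIs per replicate. The main test was repeated with DESeq2 1.42.0, other scalings and filters, CA1 in the fit and a replicate block. It was also repeated with thinning to 52800 UMIs, correction for repeated UMIs and each replicate left out. The other conditions were repeated with DESeq2, the block and thinning only. The interaction was repeated with these, DESeq2 size factors and each replicate left out. The test scripts were tested on simulated counts.

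Named genes were the marker and target genes, in each direction the 10 largest fold changes among called genes with 20 or more UMIs in the higher region and separate CPM, the 5 smallest p-values, up to 8 called genes of each list with some not called, the 5 smallest interaction p-values in each direction, and genes near the UMI limit. A further 15 genes were named after their values were seen. Some genes that the rule names are not reported here. The members and lists were chosen with earlier results of these data known. Gene positions are from GENCODE M21, which matched 32515 identifiers, and promoter sequences from RefSeq on GRCm38.p6.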

Additional observations from a re-analysis of the deposited data

Results flagged for a closer look

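Of 295 groups of 4 replicates examined, 14 held a replicate far from the other 3, and chance alone marks about 1 in 20 such groups. In CA3 the highest replicate stood apart for Ttr (1976 CPM), Mal (548.0 CPM), Rpl11 (530.3 CPM), Kcnq5 (305.5 CPM), Nnat (156.6 CPM), Nr3c2 (112.0 CPM) and Shisa9 (49.41 CPM), and the lowest for Pcdh7 (75.76 CPM). In DG the highest replicate stood apart for Cldn11 (394.5 CPM), Kcnc4 (78.37 CPM) and Npy5r (64.22 CPM), and the lowest for Prox1 (486.2 CPM), Sema5a (372.7 CPM) and Kcnab2 (149.1 CPM). Kcnc4, a voltage-gated potassium channel, lost its call without CA3 replicate 2 or 3 or DG replicate 3 (adjusted p up to 0.16).

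For 17 named genes the effect of region differed between formalin-fixed and fresh-frozen TE sections by the interaction test of edgeR at an adjusted p under 0.05. The terms were positive, that is, further toward CA3 after fixation, for Ttr (6.95), Nnat (3.80), Rpl37rt (3.36), Enpp2 (2.54), Slc17a7 (1.70), Hsp90aa1 (1.54), Cpe (1.04), Atp5o (0.97) and Thy1 (0.96). They were negative for Gm42710 (-6.42), Gm10925 (-3.59), Gm29216 (-3.52), Gm13341 (-2.83), Gm28437 (-2.78), Gm28661 (-2.05), Neo1 (-1.96) and Atp5d (-1.59). Ttr, Enpp2, Hsp90aa1, Rpl37rt, Gm10925, Gm13341, Gm28437, Gm28661 and Gm29216 were called under all 20 alternatives, Atp5d under 19 and Thy1 and Cpe under 17. Gm42710 was called under 12 of 19, Nnat under 11 of 19, Slc17a7 and Neo1 under 10 of 20, and Atp5o under 4 of 20. None of the alternatives corrected the interaction for repeated UMIs. In fresh-frozen TE replicates of CA3 and DG, the highest count of a gene was 4093 to 4317, where 4096 different UMIs exist. Whether the counts of the 17 genes were limited there was not tested. The parts that fixation, depth, library and the UMI limit have in these terms cannot be told apart.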

How the results depend on the processing

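The 867 calls became 445 with DESeq2 (247 higher in CA3 and 198 in DG), 413 after thinning to one total (237 and 176) and 414 with thinning and the replicate block together (238 and 176). Thinning also moved the median log2 value of all genes tested from -0.09 to 0.04, which is to be set against each change. Leaving out 1 replicate gave 603 to 789 calls, 247 to 386 higher in CA3 and 356 to 461 in DG, with the lowest number for CA3 without CA3 replicate 3. Without a filter on low counts 694 were called, with filterByExpr 642, with DESeq2 size factors 868, with CA1 in the fit 812, with repeated UMIs corrected 872 and without mitochondrially encoded genes 871. Same-numbered replicates had the same order of total UMIs in CA3 and DG. Their deviations over 3893 genes were weakly correlated (0.05, 0.21, 0.09 and 0.08, with CA3 replicate 1 closest to DG replicate 4). Whether replicates of a number belong together is not given. The replicate block gave 909 calls. Fresh-frozen TE calls became 1946 with the replicate block and 152 thinned, fresh-frozen HCl calls 2619 and 198, and paraffin calls 151 with DESeq2 and 168 thinned. The 36 interaction calls became 55 with DESeq2, 15 thinned and 167 with the replicate block, and 17 to 44 with 1 replicate left out, the low values coming without fresh-frozen DG replicate 3 (18), formalin-fixed CA3 replicate 3 (23) or formalin-fixed DG replicate 3 (17). Of the 154 called genes chosen for naming, 84 were called under every one of the 18 settings that gave them a value, none reversed, and 321 of 2670 single values lost the call. The value of mt-Rnr2, not called as counted (0.15), reversed to -0.53 with repeated UMIs corrected. The cause of the other moves was not tested. At 52800 UMIs in the smallest replicate, 1 UMI is 18.9 CPM, so differences of that size or less were not detectable in that replicate.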
